A study of Mus musculus with 12 samples.

Results

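The SLAM family receptors and their adaptor were followed in the T cells of normal and coreceptor-reversed mice, as 8 genes chosen by symbol: Slamf1, Slamf6, Slamf7, Ly9, Cd84, Cd48, Cd2 and Sh2d1a. All 8 were present among the 12809 genes of the table, and all 8 were among the 11595 genes that passed the filter on low values. RNA was measured in 12 libraries of CD4 and CD8 T cells sorted from lymph nodes (LN), in 4 groups with 3 replicates each. B6 CD4 and B6 CD8 T cells came from female C57BL/6 (B6) mice that were 10 weeks old. FlipFlop CD4 and FlipFlop CD8 T cells came from female FlipFlop mice that were 14 weeks old. FlipFlop mice are homozygous for a Cd8a locus altered to encode CD4 and for a Cd4 locus altered to encode CD8, so that coreceptor protein and lineage programme are exchanged. The altered Cd8a locus was made in 129-derived embryonic stem cells and strain 129 genes may remain in these mice, whereas the altered Cd4 locus was made in B6 cells. The labels do not say whether replicates were separate mice, so p-values measure the spread between these samples.

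SLAM receptors are immunoglobulin-like surface receptors of blood cells. Most of them bind the same receptor on a neighbouring cell, and their tails carry tyrosine motifs that recruit SAP, the small adaptor encoded by Sh2d1a, which brings in the kinase FYN. In T cells this pathway is known for prolonging contact with B cells, for the help given by follicular helper T cells, and for the development of NKT cells. CD48 is a lipid-anchored member that serves as a ligand, in the mouse for CD2 and for CD244, and CD2 is a related adhesion receptor outside the cluster. The genes of the cluster are polymorphic among inbred strains, and C57BL/6 and 129 mice are known to carry different haplotypes of it.

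The 4 groups allow lineage, strain and coreceptor to be separated. The lineage effect was the mean of the helper-lineage groups (B6 CD4 and FlipFlop CD8) minus the mean of the cytotoxic-lineage groups (B6 CD8 and FlipFlop CD4). The strain effect was FlipFlop minus B6, and it cannot be told apart from the difference in age or from other alleles that the FlipFlop mice carry. The coreceptor effect was CD4 minus CD8 T cells, and the same contrast asks whether the strain difference was unequal in the 2 lineages. Values are CPM, read counts relative to library size, scaled by a library factor, differences are on the scale of log2(CPM + 0.5) with their standard error (SE), and genes were called at an adjusted p under 0.05 (limma, Benjamini-Hochberg over all tested genes).

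Libraries held 26600000 to 33100000 reads on the listed genes, and the member with the fewest reads in any library was Slamf7 with 91. The groups carried the lineage markers of their labels. Zbtb7b, which encodes the helper-lineage factor ThPOK, lay between 162 and 203 CPM in the 6 helper-lineage libraries and between 1.16 and 2.79 CPM in the 6 cytotoxic-lineage libraries, and Runx3 lay between 52.6 and 68.4 CPM in the former and between 104 and 145 CPM in the latter. Cd3e, a chain of the T cell receptor complex, lay between 336 and 409.8 CPM in all 12 libraries. The summed level of the 5 listed T cell genes, none at 0, varied more, at 2851 to 3730 CPM for B6 CD4, 2321 to 2624 CPM for FlipFlop CD8, 2616 to 2717 CPM for B6 CD8 and 2427 to 2722 CPM for FlipFlop CD4 libraries, with B6 CD4 replicate 1 the highest.

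Of the 8 members, 6 lie together on mouse chromosome 1, within 364.5 kb (GRCm38). In order along the chromosome they are Ly9 (ENSMUSG00000004707.14, chr1:171588624-171607410, - strand), Slamf7 (ENSMUSG00000038179.13, chr1:171632403-171653035, - strand), Cd48 (ENSMUSG00000015355.13, chr1:171682009-171705258, + strand), Slamf1 (ENSMUSG00000015316.11, chr1:171767127-171801184, + strand), Cd84 (ENSMUSG00000038147.13, chr1:171839697-171890718, + strand) and Slamf6 (ENSMUSG00000015314.10, chr1:171917515-171953170, + strand). Cd2 (ENSMUSG00000027863.8) lies at chr3:101275899-101287939 and Sh2d1a (ENSMUSG00000005696.11) at chrX:42502453-42529330. All are protein-coding, and each value sums the reads of a whole gene. Slamf6 overlaps the antisense gene Gm37065, Slamf7 the antisense gene Gm37787, Ly9 the gene Cd244a on the opposite strand, and Sh2d1a the gene Tenm1 on the opposite strand. On the same strand, Cd48 overlaps the gene Gm37010 and Slamf7 the microRNA gene Mir7683, and strand could not separate the reads of these pairs. The use of strand in counting is not given in the sources used here, so reads of the pairs on opposite strands cannot be told apart either.

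Promoter sequences were at hand for 5 of the 8 members, in RefSeq windows on GRCm38.p6 that run from 250 bases before the RefSeq start of the gene to 50 bases after it. This start differs from that of the gene coordinates given above, from GENCODE, and lies 5 bases downstream for Slamf1, 53 bases upstream for Slamf6 and 4036 bases downstream, within the gene, for Slamf7. Those of Slamf1 and Slamf6, which were both higher in the helper lineage, and of Slamf7, which was not, are shown 5′ to 3′ with motif matches in capitals. Short motifs of the RUNX, GATA, E protein, ETS and TCF families of factors were searched on both strands.
Slamf1 promoter, chr1:171766882-171767181, + strand: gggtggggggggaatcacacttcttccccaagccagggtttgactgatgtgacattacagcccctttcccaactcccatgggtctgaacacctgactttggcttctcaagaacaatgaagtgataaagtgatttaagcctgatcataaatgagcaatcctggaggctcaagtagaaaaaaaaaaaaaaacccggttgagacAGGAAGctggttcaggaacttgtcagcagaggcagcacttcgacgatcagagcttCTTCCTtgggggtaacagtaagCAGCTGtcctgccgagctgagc
Slamf6 promoter, chr1:171917212-171917511, + strand: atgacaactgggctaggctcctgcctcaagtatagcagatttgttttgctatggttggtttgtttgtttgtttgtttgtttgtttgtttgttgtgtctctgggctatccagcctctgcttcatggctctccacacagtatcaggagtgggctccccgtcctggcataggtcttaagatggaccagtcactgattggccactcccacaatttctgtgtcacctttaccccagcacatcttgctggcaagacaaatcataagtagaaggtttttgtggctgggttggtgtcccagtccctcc
Slamf7 promoter, chr1:171648950-171649249, - strand: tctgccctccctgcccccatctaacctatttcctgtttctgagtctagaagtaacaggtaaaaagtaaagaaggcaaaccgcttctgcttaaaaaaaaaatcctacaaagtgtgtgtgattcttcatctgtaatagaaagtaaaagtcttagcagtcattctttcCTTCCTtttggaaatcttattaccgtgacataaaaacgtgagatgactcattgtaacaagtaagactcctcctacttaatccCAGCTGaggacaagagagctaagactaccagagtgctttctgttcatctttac
The Slamf1 window held 1 E protein and 2 ETS matches, which did not overlap. The Slamf7 window also held 1 E protein match, together with 1 ETS match, and the Slamf6 window held none of these letters. The Cd48 window held 1 RUNX, 1 ETS and 1 TCF match, and the Cd84 window held 1 RUNX and 1 ETS match. Each motif was compared with 32851 promoters of the same length. The letters searched for RUNX were TGTGGT, held by 16.8% of them. For the GATA family, whose factors include a regulator of helper T cells, the search used AGATAA, which 11.2% of promoters held. E protein matches were to CAGCTG, a sequence that reads the same on both strands and was present in 16.3%. The ETS search used AGGAAG and matched the widest share of promoters, 35.4%. TCF matches were to CTTTGA, present in 16.0%. Ly9, Cd2 and Sh2d1a had no entry.

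The members differed widely in level once values were divided by the length of their exons. Over the 12 libraries, the mean level per length was 228 CPM per kb for Cd2, 141 for Cd48 and 58.8 for Ly9, the 3 highest. It was 17.8 CPM per kb for Cd84, 9.95 for Slamf6 and 9.56 for Sh2d1a, and 3.58 for Slamf1 and 2.12 for Slamf7, the 2 lowest. The 2 lowest members were also those that differed most between groups, by 4.15-fold for Slamf1 and 2.79-fold for Slamf7 between the highest and the lowest group mean, against 1.21-fold to 1.80-fold for the other 6.

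**Figure D1:**
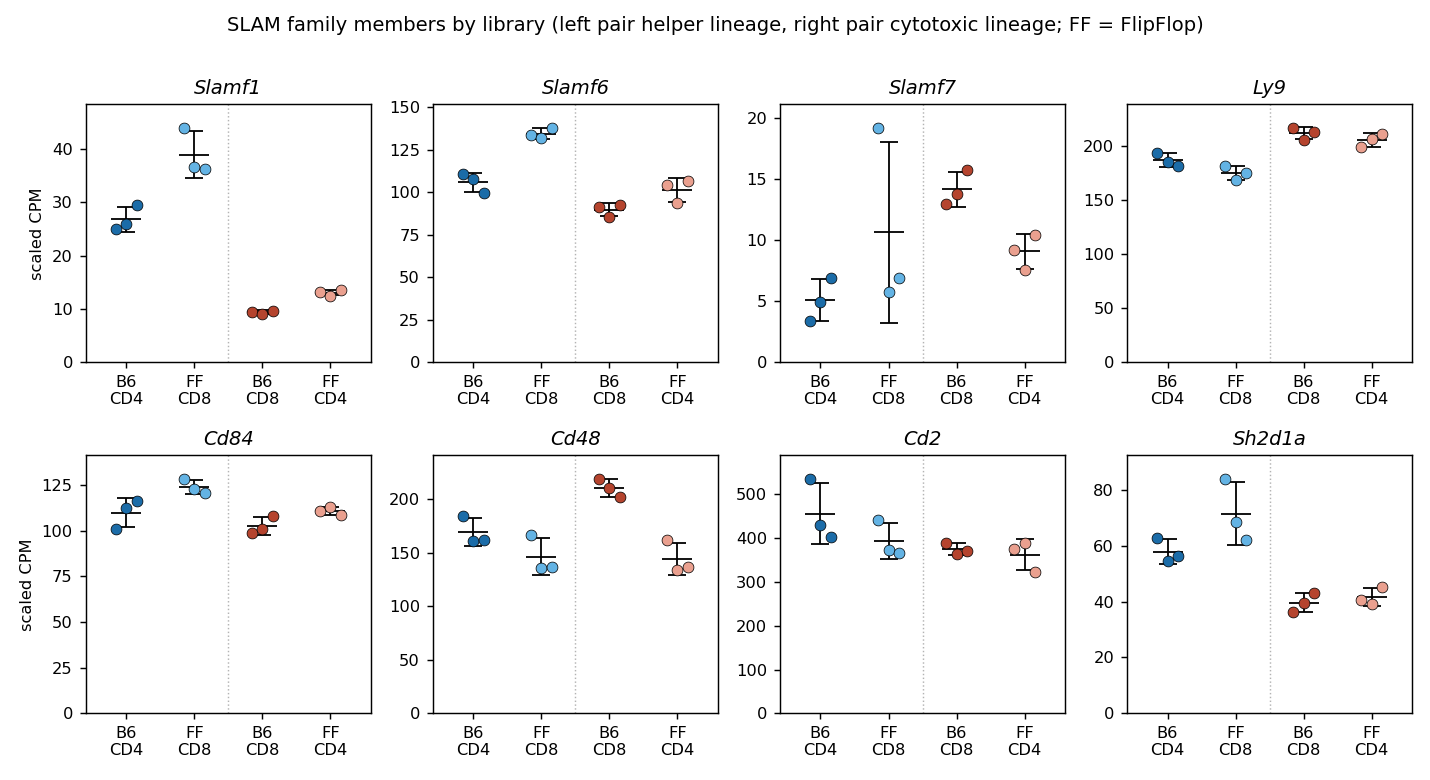
Scaled CPM of each of the 8 genes in every library, with 1 panel per gene; points are libraries, and the bars are the mean and SD of the 3 replicates of a group. In the Slamf1 and Sh2d1a panels every point left of the dotted line (helper lineage) lies above every point right of it (cytotoxic lineage), whereas in the Slamf7 panel 1 FlipFlop CD8 library stands apart at 19.2 CPM.

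Slamf1, which encodes the self-binding receptor CD150, followed lineage more closely than any other member. It measured 24.9, 25.9 and 29.4 CPM for B6 CD4 and 43.9, 36.5 and 36.3 CPM for FlipFlop CD8 T cells. It measured 9.51, 8.96 and 9.64 CPM for B6 CD8 and 13.1, 12.5 and 13.6 CPM for FlipFlop CD4 T cells. None of the 4 groups overlapped. The lineage effect was 1.50 ± 0.07 (SE; adjusted p = 3.5e-09), and the mean CPM was 2.92-fold higher in the helper lineage. CD4 exceeded CD8 T cells in B6 mice by 1.46 ± 0.09, and in FlipFlop mice the order was turned, with a CD4 minus CD8 difference of -1.53 ± 0.09. Slamf1 was also higher in FlipFlop than in B6 mice, by 0.49 ± 0.07 (adjusted p = 3.1e-04). This strain difference appeared within each lineage, at 0.53 ± 0.09 for FlipFlop CD8 against B6 CD4 (adjusted p = 0.0020) and 0.46 ± 0.09 for FlipFlop CD4 against B6 CD8 (adjusted p = 0.0093). Slamf1 was therefore the member whose 4 groups could all be ranked, in the order FlipFlop CD8, B6 CD4, FlipFlop CD4 and B6 CD8, with each step past the threshold.

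Markers of regulatory T cells moved with Slamf1 in the helper lineage. The summed level of the 6 listed genes, all in the table and none at 0, was 371 to 457 CPM for B6 CD4 and 921 to 1081 CPM for FlipFlop CD8 libraries. The sum was 61.6 to 68.5 CPM for B6 CD8 and 68.5 to 72.7 CPM for FlipFlop CD4 libraries, while Foxp3, the defining factor of these cells, did not exceed 2.30 CPM there. The part of these cells in the Slamf1 values was not tested, and in these bulk samples fewer cells of a type and less RNA per cell cannot be told apart. The plot of Slamf1 against the regulatory T cell list shows both values for each library.

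Slamf6 and Cd84 encode self-binding receptors that signal through SAP. Slamf6 measured 110.3, 108 and 99.3 CPM for B6 CD4 and 133, 132 and 138 CPM for FlipFlop CD8 T cells. In the cytotoxic lineage it measured 91.2, 85.2 and 92.4 CPM for B6 CD8 and 104, 93.4 and 106 CPM for FlipFlop CD4 T cells. The FlipFlop CD8 libraries lay above all others, and the B6 CD4 and FlipFlop CD4 libraries overlapped. The lineage effect of Slamf6 was 0.32 ± 0.05 (adjusted p = 1.8e-04) and its strain effect 0.26 ± 0.05 (adjusted p = 0.0026). FlipFlop CD8 exceeded B6 CD4 T cells by 0.34 ± 0.07 (adjusted p = 0.0043). FlipFlop CD4 minus B6 CD8 was 0.18 ± 0.07 (adjusted p = 0.15), which missed the threshold. FlipFlop CD8 was thus set apart from the next group, and neither lower step of the order, from B6 CD4 to FlipFlop CD4 and on to B6 CD8, passed the threshold, although the FlipFlop CD4 libraries (93.4 CPM at the lowest) lay above the B6 CD8 libraries (92.4 CPM at the highest). In B6 mice alone the CD4 minus CD8 difference was 0.24 ± 0.07 (adjusted p = 0.022), and it missed the threshold without B6 CD4 replicate 2 (adjusted p = 0.070) or without B6 CD8 replicate 2 (adjusted p = 0.10).

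Cd84 showed a narrower range. It measured 101, 112 and 117 CPM for B6 CD4, 128, 123 and 121 CPM for FlipFlop CD8, 98.7, 101 and 108 CPM for B6 CD8 and 111, 113 and 109 CPM for FlipFlop CD4 T cells. The FlipFlop CD8 libraries were again the highest, and the other groups lay close together. Markers of naive T cells moved in these libraries too, with the 6 listed genes, none at 0, summing to 3777 to 3945 CPM for FlipFlop CD8 against 4667 to 5166 CPM in the other 9 libraries, beside their higher regulatory T cell sum. The part of these cells in the Cd84 and Slamf6 values was not tested. The lineage effect of Cd84 was 0.13 ± 0.05 (adjusted p = 0.045) and its strain effect 0.14 ± 0.05 (adjusted p = 0.037). Both calls were fragile, since the first held in 2 and the second in 4 of the 12 fits that left out 1 library. FlipFlop CD4 minus FlipFlop CD8 was -0.16 ± 0.07 (adjusted p = 0.090), and -0.16 with an adjusted p of 0.049 in the fit with the replicate number as a block within each strain. No step between adjacent groups in the order of Cd84 levels passed the threshold.

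Slamf7, a self-binding receptor best known from NK, plasma and cytotoxic cells, had its highest group mean in B6 CD8 T cells. It measured 3.42, 4.94 and 6.86 CPM for B6 CD4 and 13.0, 13.7 and 15.7 CPM for B6 CD8 T cells, which did not overlap. It measured 9.16, 7.57 and 10.4 CPM for FlipFlop CD4 T cells and 19.2, 5.79 and 6.92 CPM for FlipFlop CD8 T cells, so that 1 FlipFlop CD8 library exceeded every other library and the other 2 lay below the FlipFlop CD4 libraries. In B6 mice CD4 was lower than CD8 by -1.44 ± 0.35 (adjusted p = 0.0092). In FlipFlop mice CD4 minus CD8 was -0.03 ± 0.35 (95% confidence interval -0.80 to 0.73, adjusted p = 0.96). Without FlipFlop CD8 replicate 1, the FlipFlop difference was 0.47 (adjusted p = 0.15) and the lineage effect, -0.70 ± 0.25 with all libraries (adjusted p = 0.041), was -0.96 (adjusted p = 4.6e-04). The lineage call was lost on leaving out any of 9 other libraries, with values as small as -0.54 (adjusted p = 0.10, without FlipFlop CD8 replicate 2). The replicate spread made up 40.5% of the variation of Slamf7, which was exceeded among the members only by Cd2.

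Effector genes moved with Slamf7 in the library that stood apart. In FlipFlop CD8 replicate 1, Ccl5, an effector chemokine, was at 164 CPM against 15.3 and 35.8 CPM in the other 2 FlipFlop CD8 libraries, and Klrg1, a receptor of effector cells, was at 46.3 CPM against 14.7 and 15.4 CPM. The summed level of the 6 listed memory or effector genes was 415 to 520.1 CPM for B6 CD4, 878 to 1243 CPM for FlipFlop CD8, 814 to 905 CPM for B6 CD8 and 513 to 549 CPM for FlipFlop CD4 libraries, with none at 0. NK cell markers, of which 5 of 6 were in the table, summed to 154 to 188 CPM for B6 CD8 and 105 to 140.2 CPM for FlipFlop CD4 libraries, against 17.5 to 20.5 CPM for B6 CD4 and 25.3 to 41.5 CPM for FlipFlop CD8 libraries. None of these 5 was at 0, and Tyrobp, which NK cells express at a high level, did not exceed 1.88 CPM in any library, while Klrd1 and Eomes, which made up most of the sum in the cytotoxic lineage, are also genes of CD8 T cells. Klrb1c, which encodes the NK1.1 receptor of NK and NKT cells, went against the sum, at 10.2 to 11.8 CPM for FlipFlop CD8 and 2.73 to 4.26 CPM for B6 CD4, against 1.57 to 3.21 CPM for B6 CD8 and 1.71 to 1.94 CPM for FlipFlop CD4 libraries. The part of these cells in the Slamf7 values was not tested.

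**Figure D2:**
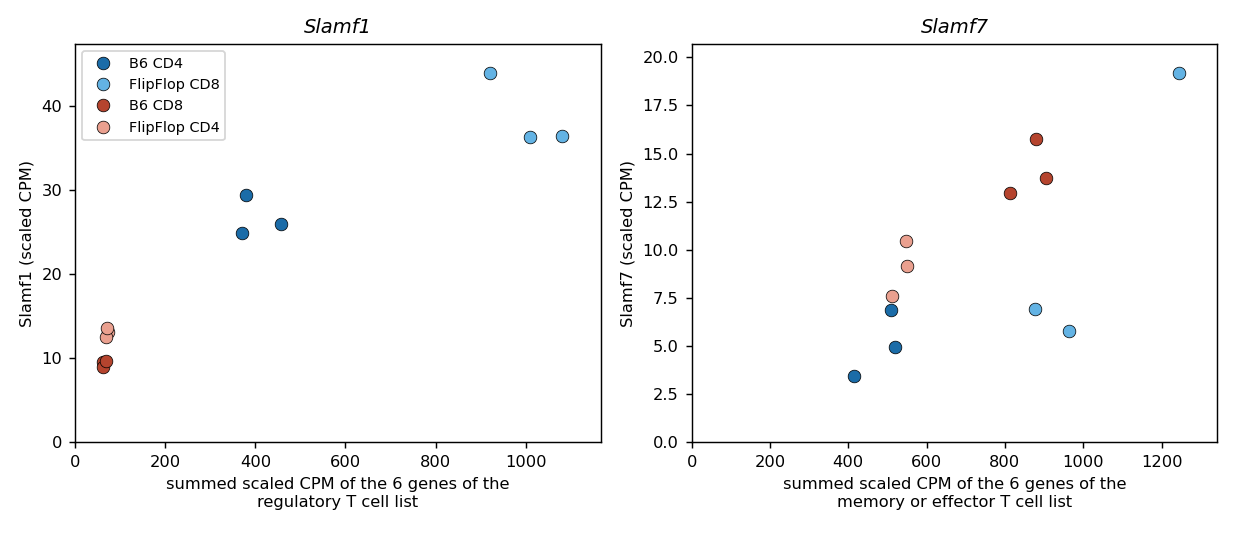
Scaled CPM of Slamf1 against the summed scaled CPM of 6 regulatory T cell genes (left) and of Slamf7 against that of 6 memory or effector T cell genes (right); each point is 1 of the 12 libraries, coloured by group. The FlipFlop CD8 libraries lie at 921 to 1081 CPM on the left axis, and FlipFlop CD8 replicate 1 lies at 1243 CPM and a Slamf7 value of 19.2 CPM on the right.

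Ly9, the self-binding receptor CD229, was lower in the helper lineage by a small margin. It measured 194, 185 and 181 CPM for B6 CD4 and 181, 169 and 175 CPM for FlipFlop CD8, against 217, 205 and 213 CPM for B6 CD8 and 198, 206 and 211 CPM for FlipFlop CD4 T cells. No helper-lineage library reached a cytotoxic-lineage library. The lineage effect was -0.21 ± 0.04 (adjusted p = 0.0015), while the strain effect was -0.07 ± 0.04 (adjusted p = 0.21). This call depended on scaling: without the TMM factor the lineage effect was -0.08 (adjusted p = 0.16), on a scale on which the median of all genes moved from -0.03 to 0.09. Relative to the median of all genes Ly9 differed by -0.18 on either scale. No step between adjacent groups passed the threshold for Ly9.

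Cd48, the ligand of CD2 and CD244, was called for strain and not for lineage in the fit without a replicate block. It measured 219, 211 and 202 CPM for B6 CD8 T cells and 184, 161 and 162 CPM for B6 CD4 T cells. In FlipFlop mice it measured 162, 134 and 137 CPM in CD4 and 167, 135 and 137 CPM in CD8 T cells. The B6 CD8 libraries lay above all 9 others, and the other 3 groups overlapped. The strain effect was -0.38 ± 0.07 (adjusted p = 0.0023) and held in all 20 alternative fits, from -0.43 to -0.27. Within the lineages, FlipFlop CD4 minus B6 CD8 was -0.55 ± 0.10 (adjusted p = 0.0042) and FlipFlop CD8 minus B6 CD4 was -0.21 ± 0.10 (adjusted p = 0.12). The test of whether these strain differences were unequal, the coreceptor effect, gave -0.17 ± 0.07 (adjusted p = 0.21). The fit with a block by replicate number within strain gave the same value with an adjusted p of 0.031. A block by number across strains, which joins B6 and FlipFlop libraries that share only a number, gave an adjusted p of 0.038. The lineage effect of Cd48 was -0.15 ± 0.07 (adjusted p = 0.12), and -0.15 with an adjusted p of 0.013 in the fit with a block within strain.

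Cd2, the adhesion receptor that binds CD48 in the mouse, measured 535, 430.0 and 403 CPM for B6 CD4, 441, 374 and 367 CPM for FlipFlop CD8, 389.7, 364 and 372 CPM for B6 CD8 and 376, 389.8 and 322 CPM for FlipFlop CD4 T cells. B6 CD4 replicate 1, the highest at 535 CPM, was also the highest in Cd3d (857 CPM, against 486 to 772 CPM in the other 11 libraries) and in Cd3g (827 CPM, against 487 to 684 CPM), and the part of this in the Cd2 values was not tested. The groups overlapped, except that every B6 CD4 library exceeded every B6 CD8 library and every FlipFlop CD4 library. Its lineage effect was 0.20 ± 0.08 (adjusted p = 0.073) and its strain effect -0.13 ± 0.08 (adjusted p = 0.23). The lineage effect passed the threshold in the fit with a block within strain (adjusted p = 0.026), without the TMM factor (adjusted p = 0.0027) and without B6 CD4 replicate 3 (adjusted p = 0.035). Among pairs of groups, FlipFlop CD4 was lower than B6 CD4 by -0.33 ± 0.11 (adjusted p = 0.049), a call that held in 2 of the 12 fits without 1 library and was -0.20 (adjusted p = 0.14) without B6 CD4 replicate 1.

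Sh2d1a, which encodes SAP, moved with lineage in both strains. It measured 62.9, 54.4 and 56.4 CPM for B6 CD4 and 83.9, 68.4 and 62.0 CPM for FlipFlop CD8 T cells, against 36.2, 39.7 and 43.0 CPM for B6 CD8 and 40.7, 39.1 and 45.2 CPM for FlipFlop CD4 T cells. The lowest helper-lineage library stood above the highest cytotoxic-lineage library, whereas the groups within a lineage overlapped. The lineage effect was 0.65 ± 0.08 (adjusted p = 2.7e-05), a 1.59-fold higher mean CPM in the helper lineage. The CD4 minus CD8 difference was 0.54 ± 0.11 in B6 and -0.76 ± 0.11 in FlipFlop mice. The strain effect was 0.18 ± 0.08 (adjusted p = 0.093), and 0.29 without the TMM factor (adjusted p = 0.0091), on a scale on which the median of all genes moved from -0.01 to 0.10. FlipFlop CD8 minus B6 CD4 was 0.29 ± 0.11 (adjusted p = 0.066). Only the middle step of the order, from B6 CD4 down to FlipFlop CD4, passed the threshold.

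Genes of follicular helper T cells, in which SAP and the SLAM receptors are known to act, were higher in sum in the helper lineage. The means of Sh2d1a and Slamf6 and the regulatory T cell sum given above were higher there too. The 6 listed genes, all in the table, summed to 228 to 302 CPM for B6 CD4 and 411 to 468 CPM for FlipFlop CD8 libraries. They summed to 86.2 to 95.9 CPM for B6 CD8 and 102 to 129 CPM for FlipFlop CD4 libraries. Il21, the cytokine among them, and Tox2 did not rise with the sum from B6 CD4 to FlipFlop CD8 libraries. Il21 lay at 3.64 to 6.62 and 3.51 to 6.23 CPM there, and Tox2 at 10.6 to 18.5 and 11.1 to 14.8 CPM. In B6 CD8 libraries Il21 was at 0 in replicate 2 and at 0.0374 and 0.0331 CPM in replicates 1 and 3, under the value of 3 reads. It lay between 0.181 and 0.297 CPM for FlipFlop CD4 libraries. Bcl6, the defining factor of these cells, lay between 29.3 and 44.3 CPM in the helper lineage and between 15.7 and 24.2 CPM in the cytotoxic lineage. The part of these cells in the Sh2d1a and Slamf6 values was not tested.

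The counts of called members for lineage, strain and coreceptor followed the order of the shares over all genes. The lineage effect was called for 6 of 8 members, with 4 higher in the helper lineage (Slamf1, Sh2d1a, Slamf6 and Cd84) and 2 lower (Slamf7 and Ly9), where 39.3% of all tested genes were called. Without the TMM factor the split was 5 higher and 0 lower, and for all tested genes it moved from 2306 higher and 2248 lower to 3599 higher and 1163 lower, or 41.0% of them. The strain effect was called for 4 of 8 members (Slamf1, Slamf6 and Cd84 higher in FlipFlop mice, Cd48 lower), against 31.2% of all tested genes. Among all genes, without the TMM factor, the strain calls moved from 1827 higher and 1788 lower to 3245 higher and 756 lower, or 34.5% of them, and those of the members from 3 higher and 1 lower to 4 higher and 1 lower, with Sh2d1a added. The coreceptor effect was called for 0 of 8 members by limma, against 5.49% of all tested genes, with 2 members (Slamf7 and Cd48) at an unadjusted p under 0.05. Over all genes its calls were 198 higher and 438 lower, and 115 higher and 596 lower (6.12%) without the TMM factor, where Cd48 was called (adjusted p = 0.039). In the fit with the replicate number as a block within each strain, 8 members were called for lineage and 1 (Cd48) for coreceptor, where 44.5% and 8.23% of all tested genes were called. The median size of the members' difference, without its sign, was 0.26 for lineage, 0.16 for strain and 0.08 for coreceptor, beside medians of 0.16, 0.16 and 0.09 over all tested genes.

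**Figure D3:**
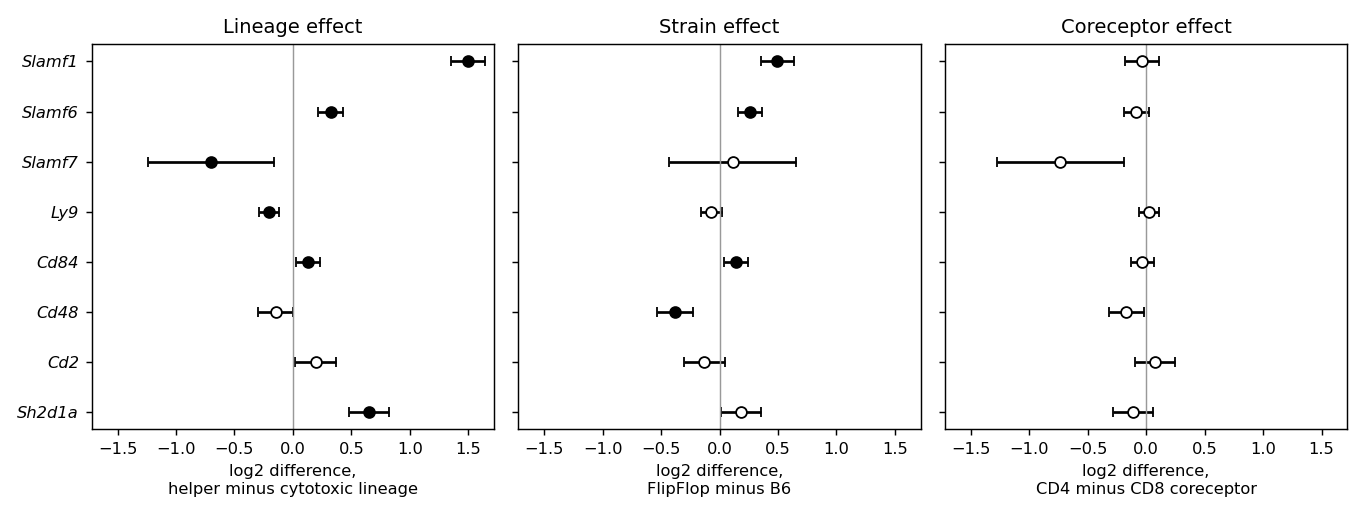
Lineage, strain and coreceptor effects of the 8 genes as log2 differences with 95% confidence intervals from limma; filled points passed an adjusted p of 0.05 in the fit without a replicate block. The lineage panel holds 6 filled points, with Slamf1 farthest from 0 at 1.50, the strain panel holds 4 and the coreceptor panel 0.

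In pairs of groups, CD4 against CD8 T cells gave 6 called members in B6 mice, with Slamf1, Slamf6 and Sh2d1a higher in CD4 and Slamf7, Ly9 and Cd48 lower, where 25.4% of all genes were called. Of these 6, Ly9 kept its call in 4 and Cd48 in 7 of the 12 fits that left out 1 library, and the count fell to 3 without B6 CD4 replicate 2 or without B6 CD8 replicate 2. In FlipFlop mice it gave 4 (Ly9 higher in CD4, and Slamf1, Slamf6 and Sh2d1a lower), where 31.3% of all genes were called. Between strains within the helper lineage, Slamf1 and Slamf6 were called, both higher in FlipFlop CD8 than in B6 CD4, against a background of 27.6%. Within the cytotoxic lineage, Slamf1 (higher) and Cd48 (lower) were called for FlipFlop CD4 against B6 CD8, against a background of 7.92%. Between T cells with the same coreceptor, FlipFlop CD4 against B6 CD4 gave 3 called members (Slamf1, Cd2 and Sh2d1a), all lower in FlipFlop mice, with 28.4% of all genes called. FlipFlop CD8 against B6 CD8 gave 6 called members, 4 higher (Slamf1, Slamf6, Cd84 and Sh2d1a) and 2 lower (Ly9 and Cd48), with 44.7% of all genes called. Without the TMM factor Ly9 lost all 3 of its calls among these pairs, with 0.05 in FlipFlop CD4 minus FlipFlop CD8 (adjusted p = 0.55), -0.11 in B6 CD4 minus B6 CD8 (adjusted p = 0.22) and -0.04 in FlipFlop CD8 minus B6 CD8 (adjusted p = 0.61). On that scale Cd84 (-0.34) and Cd2 (-0.30) were called as lower in FlipFlop CD4 than in FlipFlop CD8, Cd2 was called as higher in B6 CD4 (0.34) and in FlipFlop CD8 (0.30) than in B6 CD8, and Cd48 as lower in FlipFlop CD4 than in B6 CD4 (-0.24). Cd84 (0.34), Sh2d1a (0.46) and Slamf7 (adjusted p = 0.049) were called as higher in FlipFlop CD8 than in B6 CD4. These pairs share groups, and their counts are not independent of each other.

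The 6 helper-lineage and the 6 cytotoxic-lineage libraries did not overlap for 3 members (Slamf1, Sh2d1a and Ly9), and this held for 16.9% of all tested genes. The 6 FlipFlop and the 6 B6 libraries overlapped for every member, with no overlap for 5.85% of all genes, and the same was true of CD4 and CD8 libraries, with 0.612% of all genes. By the rule of the study's methods, a change of more than 5-fold with p under 0.05, 0 members were called for any of these effects by limma, where 1.61% of all genes were called for lineage, 0.379% for strain and 0.0172% for coreceptor. At an unadjusted p under 0.05 with no bound on the fold, 7 members passed for lineage, 5 for strain and 2 for coreceptor, where 46.7%, 44.5% and 18.6% of all tested genes passed.

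The split of each member's variation among the 12 libraries was taken as shares of the sum of squares. Lineage made up 89.1% for Slamf1, 80.4% for Sh2d1a, 79.0% for Ly9 and 53.8% for Slamf6. Strain made up 60.5% for Cd48, 40.5% for Cd84 and 35.1% for Slamf6. Lineage was the largest of the 3 shares in 5 members, strain in Cd48 and Cd84, and coreceptor in Slamf7 (30.8%, beside 28.0% for lineage). The order in Slamf7 turned without FlipFlop CD8 replicate 1, where its coreceptor effect went from -0.74 to -0.48 and its lineage effect from -0.70 to -0.96, and without FlipFlop CD4 replicate 2, where they were -0.68 and -0.76. For Cd2 the spread between replicates took 50.1%.

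**Figure D4:**
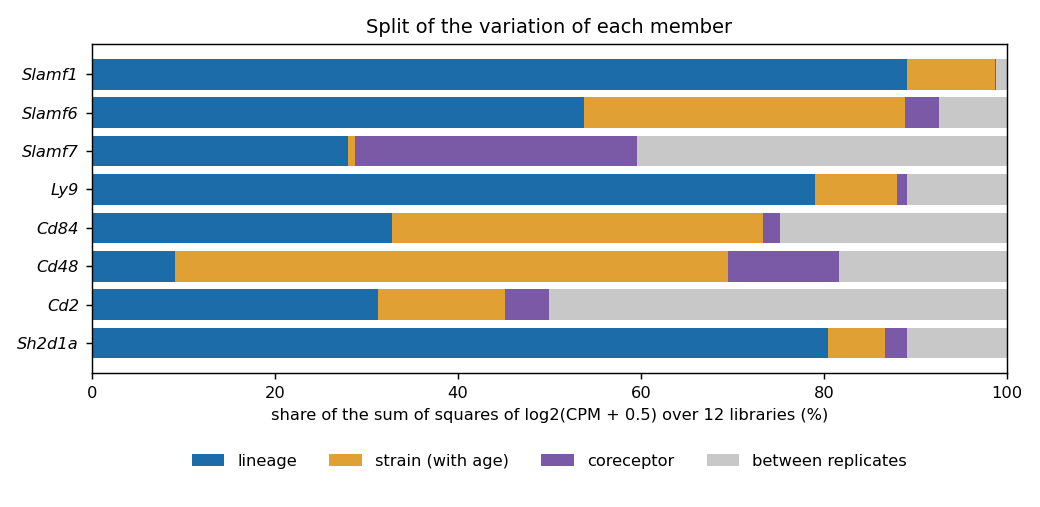
Share of the sum of squares of log2(CPM + 0.5) over 12 libraries that fell to lineage, strain, coreceptor and the spread between replicates, for each of the 8 genes (stacked bars, in percent). Lineage fills 89.1% of the Slamf1 bar and strain 60.5% of the Cd48 bar, whereas replicates fill 50.1% of the Cd2 bar.

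Pearson's r of log2 values over the 12 libraries, which share their groups, describes how alike the members were. Among Slamf1, Cd84 and Slamf6, which lie next to each other, it was 0.88 between Slamf6 and Slamf1, 0.78 between Cd84 and Slamf1 and 0.77 between Cd84 and Slamf6. Between the neighbours Cd48 and Slamf1 it was -0.50. It was 0.95 between Sh2d1a and Slamf1, which lie on different chromosomes, and -0.93 between Ly9 and Slamf1. It was 0.26 between Cd48 and Cd2, the ligand and receptor. Among 8086 other genes (8087 for Slamf7) with a mean of at least 10 CPM, those most like Slamf1 were Nrp1 (r = 0.99), which is on the regulatory T cell list, and S100a4 (r = 0.99). Those most like Sh2d1a were Bcl2a1b and Tnfrsf9 (both r above 0.96), and those most like Slamf6 were Dtnb and Reps1 (r = 0.97 and 0.96). Those most like Slamf7 were Ctla2a (r = 0.94) and Ccl5 (r = 0.91), and those most like Cd48 were Eya2 and Tnfaip8 (both r = 0.96). The nearest genes were Rora and Atp2a2 for Cd84 (both r = 0.95), Armc7 and Rrp15 for Ly9 (both r = 0.96) and Chmp2a and Mkrn1 for Cd2 (r = 0.97 and 0.96).

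Because the chromosome 1 cluster varies among strains, the strain effect was set beside that of its surroundings. Of the 32 other protein-coding genes within 1 Mb of the cluster that were in the table, 30 were tested and 9 were called, or 30.0%, against 31.2% of all tested genes. Of these 9, Vangl2 (0.59) and Gm10521 (0.61) were higher in FlipFlop mice and 7 were lower, from Fcrla at -0.55 to Pea15a at -0.16, with B4galt3 at -0.38, Ufc1 at -0.27 and Sdhc at -0.25. The neighbours' median strain effect was -0.07, beside -0.01 for all genes. Of the 7 that were lower, Tomm40l and Pea15a held their calls in 7 and 4 of the 12 fits that left out 1 library. Without the TMM factor Ufc1 (-0.16), Tomm40l (-0.10) and Pea15a (-0.05) did not pass. Both neighbours that were higher stood at low levels, with Vangl2 between 1.40 and 6.91 CPM and Gm10521 between 1.24 and 4.20 CPM.

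The called genes that were higher in FlipFlop mice lay on 1 side of the middle of the cluster. From the middle to the distal side the first called genes were Slamf1, Cd84, Gm10521, Slamf6 and Vangl2, at 13.3, 94.3, 126, 164 and 244 kb. All 5 were higher in FlipFlop mice, though the call of Cd84 held in 4 of the 12 fits that left out 1 library. Pea15a, farther out at 431 kb, was lower. Proximal to the middle lay Cd48, Slamf7 and Ly9, at -77.3, -128 and -173 kb. Cd48 was called as lower in FlipFlop mice, and Slamf7 (0.11) and Ly9 (-0.07) were not called. No called gene was higher within 1 Mb on that side. This grouping was chosen after the values were seen and was not tested. Lineage was called for 6 of the 30 neighbours, or 20.0%, against 39.3% of all tested genes. Coreceptor was called for 2, or 6.67%, against 5.49% of all tested genes. Of these, Atf6 held in all 12 fits that left out 1 library and Alyref2 in 1 of them.

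**Figure D5:**
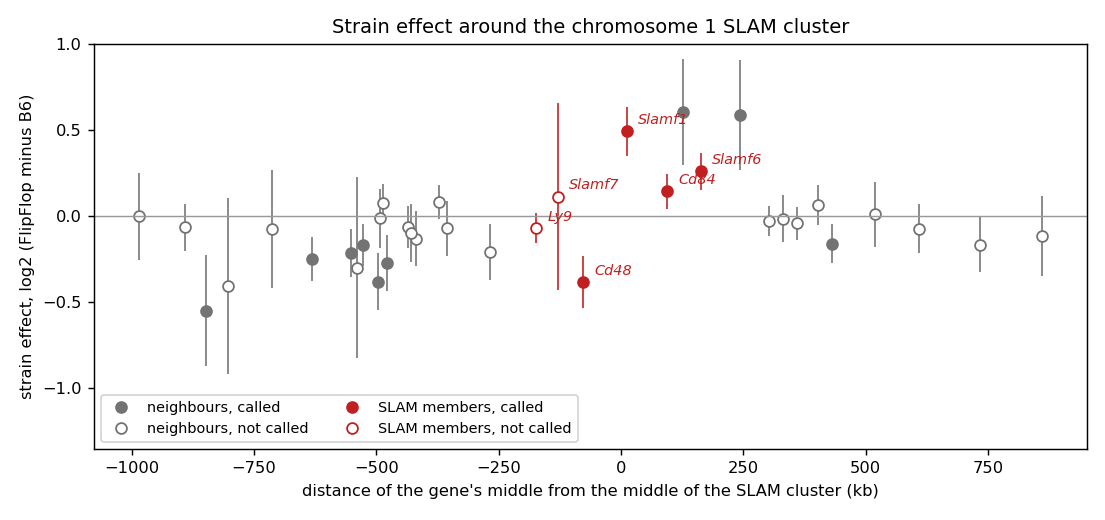
Strain effect (log2, FlipFlop minus B6) with 95% confidence intervals for the 6 members on chromosome 1 (red) and 30 protein-coding neighbours (grey), against the distance in kb from the middle of the cluster; filled points passed an adjusted p of 0.05. Filled points above 0 lie between 13.3 and 244 kb, and Cd48 lies below 0 at -77.3 kb.

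The genes through which SLAM receptors and CD2 signal were followed as a list of 23, of which 17 were in the table and all 17 were tested. One of these, Zbtb16, passed the filter through FlipFlop CD8 T cells alone and so had to differ. It is left out of the counts for lineage, strain and coreceptor given here. The lineage effect was called for 7 of the other 16, or 43.8%, beside 39.3% of all genes, with 4 higher and 3 lower in the helper lineage. Fyn, the kinase recruited by SAP, was higher by 0.19 ± 0.05 (adjusted p = 0.0063). Dok2, an adaptor below the receptors, was higher by 0.61 ± 0.06 (adjusted p = 4.8e-06), with group means of 70.6 and 79.4 CPM in the helper lineage and 49.3 and 48.7 CPM in the cytotoxic lineage. Rasa1, which limits RAS, and Ptpn11, which encodes the phosphatase SHP-2, were higher by 0.34 ± 0.09 and 0.28 ± 0.06. Ptpn6, which encodes the phosphatase SHP-1, was lower by -0.37 ± 0.05 (adjusted p = 3.1e-05), and the exchange factor Vav1 and the kinase Prkcq were lower by -0.19 ± 0.04 and -0.18 ± 0.05. Without the TMM factor the values of Vav1 and Prkcq were -0.07 and -0.06 and did not pass. Lck, the kinase bound by CD4 and CD8, gave -0.01 ± 0.05.

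The strain effect was called for 5 of these 16 pathway genes, or 31.2%, the same share as of all genes (31.2%). Rasa1 (0.42), Inpp5d (0.21, the phosphatase SHIP-1) and Ptpn11 (0.20) were higher in FlipFlop mice and Dok1 (-0.24) and Ptpn6 (-0.21) were lower. Without the TMM factor the values of Dok1 and Ptpn6 were -0.13 and -0.10 and did not pass (adjusted p = 0.098 and 0.12). The calls of Ptpn11 and Inpp5d held in 6 and 8 of the 12 fits that left out 1 library. Zbtb16 encodes PLZF, the factor of NKT cells, whose development needs SAP. Zbtb16 averaged 7.93 ± 3.17 CPM (SD, n = 3) in FlipFlop CD8 T cells and 0.216 ± 0.137 CPM for B6 CD4 T cells. In B6 CD8 libraries it did not exceed 0.0663 CPM, which is under the value of 3 reads, and in FlipFlop CD4 libraries it was at 0, where 3 reads are worth 0.0985 to 0.112 CPM. Without Zbtb16, the coreceptor effect was called for 0 of the other 16 pathway genes, against 5.49% of all tested genes.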

How the data were processed

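Total RNA of sorted T cells was made into libraries with a low-input kit, sequenced as paired-end reads and aligned to mm10. The methods name STAR, whereas the submitters' processing notes name Trimmomatic and TopHat. The counting program, the annotation and the filter behind the table are not given in the sources used here. The deposited table, 1 for the whole series, holds signal in CPM that the authors had scaled by TMM (a library factor), and its columns sum to 875501 to 1081793. Its values under 3 CPM are multiples of 0.01 read, and those within 0.005 of a whole read made up 84.9% to 86.6% of values under 100 CPM, so the unit was kept and no count test was run. A value of 3 reads is 0.0857 to 0.120 CPM, which covers counting error only.

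The 12809 identifiers were matched to GENCODE M21. Genes that reached 1 CPM in 3 or more libraries were fitted as log2(CPM + 0.5), which understates changes of low genes, with limma 3.58.1 (lmFit, eBayes with trend) in R 4.3.3, as 4 group means over 12 libraries with 8 residual degrees of freedom. The fit was tested on simulated data. Alternatives covered the pseudocount, filter, scaling, trend, replicate block, the 6 libraries of a pair, each replicate left out, and the study's rule of over 5-fold and p under 0.05. Deviations of same-numbered CD4 and CD8 libraries correlated at 0.44, 0.27 and 0.51 in FlipFlop mice and at 0.18, 0.089 and 0.35 in B6 mice. The main fit took no libraries as pairs, so its calls leave any such pairing unused. The fit with a block within strain paired same-numbered libraries in both strains. The text names all 8 members, the called pathway genes and neighbours or the 5 with the largest effects, and the 2 genes most like each member. Members and lists were chosen with earlier results of these data known.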

Additional observations from a re-analysis of the deposited data

Results flagged for a closer look

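For 6 members the CD4 minus CD8 difference was unequal in B6 and FlipFlop mice, by the limma test of that difference with Benjamini-Hochberg adjustment. B6 less FlipFlop, it was 2.99 on the log2 scale for Slamf1, 1.30 for Sh2d1a, 0.64 for Slamf6 and 0.26 for Cd84, and it was -1.40 for Slamf7 and -0.41 for Ly9. The sign of the CD4 minus CD8 difference turned between strains for Slamf1, Sh2d1a, Slamf6, Ly9 and Cd84, though for Cd84 neither strain's own difference passed the threshold (0.10 in B6 and -0.16 in FlipFlop mice). For Slamf7 it was -1.44 in B6 and -0.03 in FlipFlop mice. By construction this is the lineage test, with the same adjusted p-values, from 3.5e-09 for Slamf1 to 0.045 for Cd84. No group had enough libraries to test single libraries for standing apart.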

How the results depend on the processing

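The lineage effects of Slamf1, Sh2d1a and Slamf6 and the strain effects of Slamf1, Slamf6 and Cd48 passed the threshold in every alternative fit that gave a value. Among the single-gene values, 1395 kept direction and side of the threshold, 69 lost a call, 40 gained one and 16 reversed. Without the TMM factor, the values that reversed were those of Ly9 for strain (0.043), coreceptor (-0.030), FlipFlop CD8 minus B6 CD4 (0.073) and FlipFlop CD4 minus B6 CD8 (0.013), and that of Cd2 for FlipFlop CD4 minus B6 CD8 (0.0049). That scaling called 1 member for coreceptor, where 6.12% of all tested genes were called. For FlipFlop CD8 minus B6 CD4 it called 5 members and median-of-ratios scaling 4. The main fit called 2 there, with 27.6% of all genes called, and the share under the other scalings is not given here. Under the study's rule the members called were 0 in all 9 comparisons and the pathway genes and neighbours called were 0 in all 4. A mean of at least 5 CPM called 0 pathway genes for coreceptor, since Zbtb16 was not tested. Leaving out single libraries gave 3 to 6 members for B6 CD4 minus B6 CD8 (3 without B6 CD4 replicate 2 or B6 CD8 replicate 2), 2 to 4 for FlipFlop CD8 minus B6 CD4 (4 without B6 CD4 replicate 3), 3 to 6 pathway genes for strain with Zbtb16 counted where tested (3 without FlipFlop CD8 replicate 1 or 3) and 0 to 1 for coreceptor (0 without any FlipFlop CD8 library). Values that reversed in such fits ranged from -0.070 to 0.0094 for Slamf1 (coreceptor), from -0.14 to 0.27 for Slamf7 (strain), from -0.35 to 0.47 for Slamf7 and -0.11 to 0.074 for Cd48 (FlipFlop CD4 minus FlipFlop CD8), from -0.045 to 0.057 for Cd84 (FlipFlop CD4 minus B6 CD4), and from -0.11 to 0.030 and -0.019 to 0.12 for Cd2 (FlipFlop CD4 and FlipFlop CD8 minus B6 CD8). The causes were not tested.

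With a replicate block, by number or within strain, the members called were 8 for lineage and 1 for coreceptor (Cd48), against 6 and 0. The calls over all genes rose too, from 39.3% to 42.5% and 44.5% for lineage and from 5.49% to 6.61% and 8.23% for coreceptor. Both blocks also joined same-numbered B6 libraries, and the B6 numbers are shared labels only. The block by number joined libraries across strains too, where deviations correlated at 0.075 to 0.29.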
